A study of Homo sapiens with 29 samples.

Results

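The 39 genes described here belong to the integrated stress response and to the supply of amino acids: stress response regulators and effectors, enzymes that make amino acids, amino acid transporters, and tRNA ligases. They were chosen by symbol, with earlier results of these data known. In the RNA table they are the rows whose name equals 1 of 39 listed symbols. In the chromatin table they are the regions annotated with the same symbols. All 39 were found among the 38148 genes of the RNA table, and 38 of them were among the 17973 genes that passed the filter on low values of at least 0.25 RPM (reads per 1 M reads counted) in at least 4 libraries. The exception was VLDLR, a lipoprotein receptor, which lay between 0.0186 and 0.135 RPM in all 16 libraries. In the chromatin table, 45 of 49916 regions carried the symbol of 24 of the genes, and 34 genes had a region within 2 kb of their deposited start. Some of these regions are wide and annotated to another gene, such as those of 50400 bases at DDIT4 and 39600 bases at PYCR1. The ones at PHGDH and TRIB3 lie 63084 and 14395 bases from the nearest start of the gene in RefSeq.

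In the integrated stress response, kinases that sense amino acid shortage, unfolded protein in the endoplasmic reticulum, haem deficiency or viral RNA phosphorylate the translation factor eIF2. This lowers protein synthesis in general but raises the translation of a few mRNAs, among them the one that encodes the transcription factor ATF4. ATF4 pairs with C/EBP proteins on a composite DNA element and turns on genes for amino acid synthesis, uptake and tRNA charging, together with regulators such as DDIT3 and TRIB3. Because ATF4 is controlled largely in translation, its mRNA level is not a measure of its protein.

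The study used HCT116, an epithelial line from a human colon cancer, and asked how DAXX, a histone chaperone, and crotonate, a short-chain fatty acid that feeds the crotonylation of histone lysines, act on gene regulation. RNA was sequenced from 4 groups of 4 libraries: DAXX siRNA (35 nM) with 10 mM crotonic acid, DAXX siRNA alone, non-targeting siRNA (25 nM) with 10 mM crotonic acid, and non-targeting siRNA alone; the doses of the 2 siRNAs thus differed too. The time in crotonate was given as 18 h in the description of the series and as 48 h in the sample protocol. Chromatin immunoprecipitation with an antibody against all crotonylated lysines (Kcr) covered 2 samples in each group with crotonate and 3 in each group without it, beside 1 input library from cells with DAXX siRNA. The labels do not say that replicates came from separate cultures, so that p-values measure the spread between these libraries.

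The RNA libraries held 35.0 to 55.13 M reads over genes and the 12 Kcr libraries 2.23 to 3.64 M reads over regions, with 1.72 M in the input. DAXX itself lay at 13.1 to 24.2 RPM with DAXX siRNA and crotonate and at 22.9 to 27.4 RPM with DAXX siRNA alone, against 95.2 to 102 RPM with non-targeting siRNA and crotonate and 101 to 105 RPM with non-targeting siRNA alone. Summed over EPCAM, KRT8, KRT18, KRT19 and CDH1, epithelial markers lay at 4160 to 4980 RPM with DAXX siRNA and crotonate against 4540 to 4970 RPM with DAXX siRNA alone. They lay at 3820 to 4040 RPM with non-targeting siRNA and crotonate against 4040 to 4750 RPM with non-targeting siRNA alone. Of these 5, CDH1 rose with crotonate in both backgrounds, with log2 fold changes of 0.29 ± 0.0807 (SE; adjusted p = 0.0174) with DAXX siRNA and 0.32 ± 0.0807 (SE; adjusted p = 0.00866) with non-targeting siRNA. EPCAM fell with DAXX siRNA, with -0.27 ± 0.0768 (SE; adjusted p = 0.0191). Of 8 mitochondrial mRNAs, taken as a sign of RNA quality, 7 had a log2 fold change above 0 in each crotonate comparison and none was called. At an unadjusted p under 0.05 there were 3 with DAXX siRNA and 1 with non-targeting siRNA. Together they made up 2.01 to 2.94% of reads with DAXX siRNA and crotonate against 2.01 to 2.24% with DAXX siRNA alone. The share was 2.36 to 2.65% with non-targeting siRNA and crotonate against 1.92 to 3.03% with non-targeting siRNA alone. Of 8 markers of other cell types, 5 were under the filter (PTPRC, CD3E, COL1A2, DCN and ALB), and the sum of all 8 was 29.5 to 39.4 RPM with DAXX siRNA and crotonate against 22.8 to 31.2 RPM with DAXX siRNA alone. It was 26.2 to 31.9 RPM with non-targeting siRNA and crotonate against 21.3 to 33.7 RPM with non-targeting siRNA alone. COL1A1 and CD68 made up nearly all of that sum; COL1A1 rose with crotonate in cells with DAXX siRNA, with a log2 fold change of 0.66 ± 0.172 (SE; adjusted p = 0.012), and PECAM1, at or under 0.495 RPM, in cells with non-targeting siRNA, with 2.14 ± 0.71 (SE; adjusted p = 0.0464). CD68 was not called. It lay at 8.72, 9.95, 8.98 and 6.63 RPM with non-targeting siRNA and crotonate, against 10.8, 12.3, 10.1 and 8.43 RPM without, with a log2 fold change of -0.28 ± 0.134 (SE; adjusted p = 0.175). With DAXX siRNA it was 0.11 ± 0.134 (SE; adjusted p = 0.656). The part of these markers in the results below was not tested.

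With crotonate, RNA of 19 of the stress response and amino acid genes fell in at least 1 siRNA background, and none of the 38 rose. The share of all genes that fell in at least 1 background was not counted. In cells with DAXX siRNA, 13 of 38 genes fell (adjusted p under 0.05, limma with Benjamini-Hochberg adjustment over all 17973 genes), where 2.41% of all genes tested fell and 13.0% rose. In cells with non-targeting siRNA, 14 of 38 fell, where 2.34% of all genes fell and 13.1% rose. Since the genes were listed with earlier results of these data known, these counts are not those of an independently chosen set. Among the 9179 genes with a mean log2 RPM of at least 4, a background chosen after the data were seen because 35 of the 38 lie in it, 3.41% fell with DAXX siRNA and 3.57% with non-targeting siRNA, against 12 and 13 of those 35. The background depended on how libraries were scaled: with each library centred on its median gene, 18 of 38 fell with DAXX siRNA, where 8.28% of all genes fell and 8.43% rose, and 25 of 38 with non-targeting siRNA, where 9.46% fell and 8.11% rose. Quantile scaling gave 9 of 38 with DAXX siRNA, where 4.74% fell and 8.06% rose, and 11 of 38 with non-targeting siRNA, where 5.62% fell and 7.92% rose. With size factors from medians of ratios it was 15 of 38, where 4.87% fell and 9.65% rose, and 19 of 38, where 4.86% fell and 9.79% rose. None of the 38 was called higher under any of these scalings. The falls were small: the median log2 fold change over the 38 genes was -0.11 with DAXX siRNA and -0.22 with non-targeting siRNA, against 0.06 and 0.07 over all genes. In bulk RNA, fewer cells that express a gene and less of its RNA per cell cannot be told apart.

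In both comparisons 8 genes fell, and the share of all genes that did so was not counted. They were ATF4 and ATF5, the effectors CHAC1 and STC2, the synthesis enzymes ASNS and PSPH, the transporter subunit SLC3A2 and the tyrosyl-tRNA ligase YARS. Another 5 fell past the threshold with DAXX siRNA (DDIT3, PSAT1, MTHFD2, SLC38A2 and TARS) and 6 with non-targeting siRNA (TRIB3, SLC7A5, AARS, WARS, MARS and CARS). These 11 are not shown to respond differently in the 2 siRNA backgrounds, since the test of that difference, given below, called no gene. All 4 crotonate libraries lay below all 4 without crotonate for 14 of 38 genes with DAXX siRNA, where this held for 3.99% of all genes tested. For 16 of 38 it held with non-targeting siRNA, against 4.11% of all genes. The count of falls rested partly on the model and on single libraries. It was 7 of 38 with DAXX siRNA when no gene was filtered, 8 when the prior variance had no trend, and 9 with non-targeting siRNA when the other 2 groups were left out of the fit. It was 5, 6 or 8 of 38 with DAXX siRNA without replicate 3, 1 or 2 of DAXX siRNA alone, and 7 or 8 without replicate 2 or 4 of DAXX siRNA with crotonate. With non-targeting siRNA it was 7 without replicate 1 of the group without crotonate, and 9 or 7 without replicate 2 or 4 of the group with it. Of the 27 calls, 11 were kept when any 1 of the 16 libraries was left out, 4 with DAXX siRNA (ATF5, STC2, ASNS and PSPH) and 7 with non-targeting siRNA (ATF5, CHAC1, STC2, PSPH, SLC7A5, SLC3A2 and YARS).

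**Figure D1:**
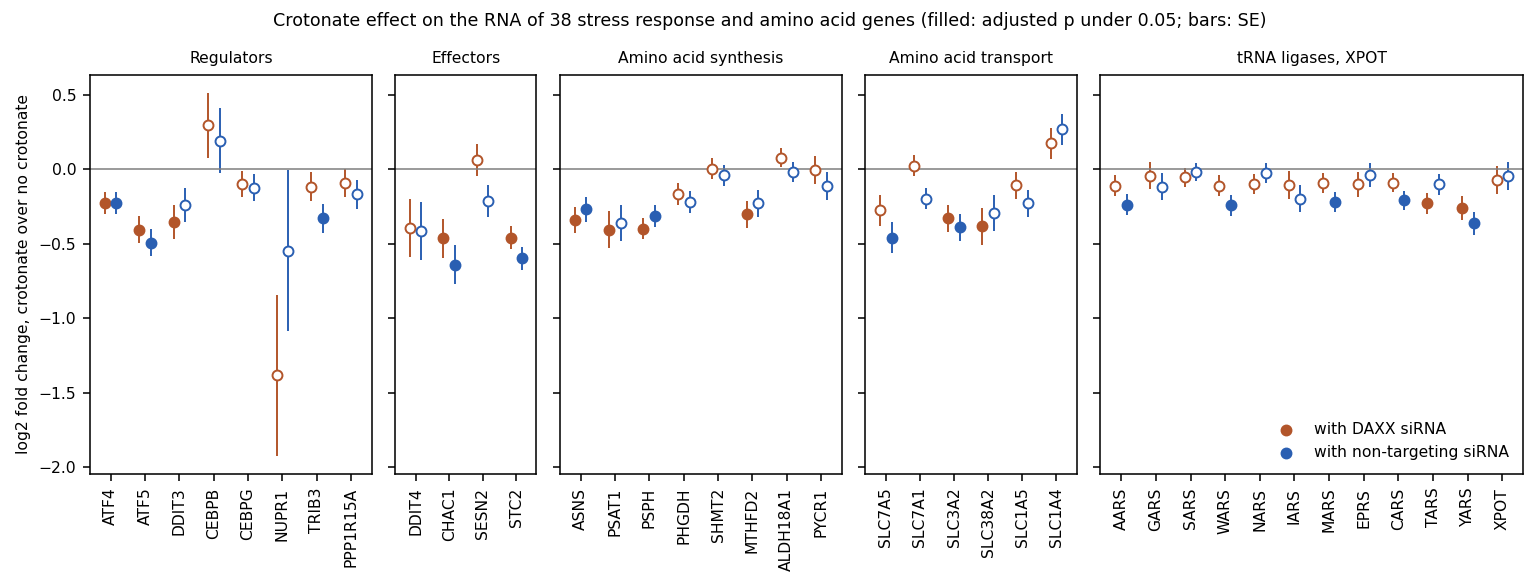
Log2 fold change of each of the 38 genes, crotonate over no crotonate, with its standard error, in cells with DAXX siRNA (brown, left of each pair) and non-targeting siRNA (blue), arranged by role; filled points have an adjusted p under 0.05. All filled points, 13 brown and 14 blue, lie below 0, and the points with wide bars at -1.38 and -0.55 belong to NUPR1, a gene near the detection limit.

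Library by library the pattern was the same. The median deviation of the 38 genes from their mean over the 16 libraries lay between -0.10 and -0.036 (log2) in the 4 libraries with DAXX siRNA and crotonate, against 0.051 to 0.131 with DAXX siRNA alone. With non-targeting siRNA it lay between -0.198 and -0.058 with crotonate, against 0.063 to 0.176 without. The 2 ranges did not overlap in either background. The median of all genes lay the other way, between 0.029 and 0.065 in the 8 libraries with crotonate and between -0.052 and -0.004 in the 8 without it.

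**Figure D2:**
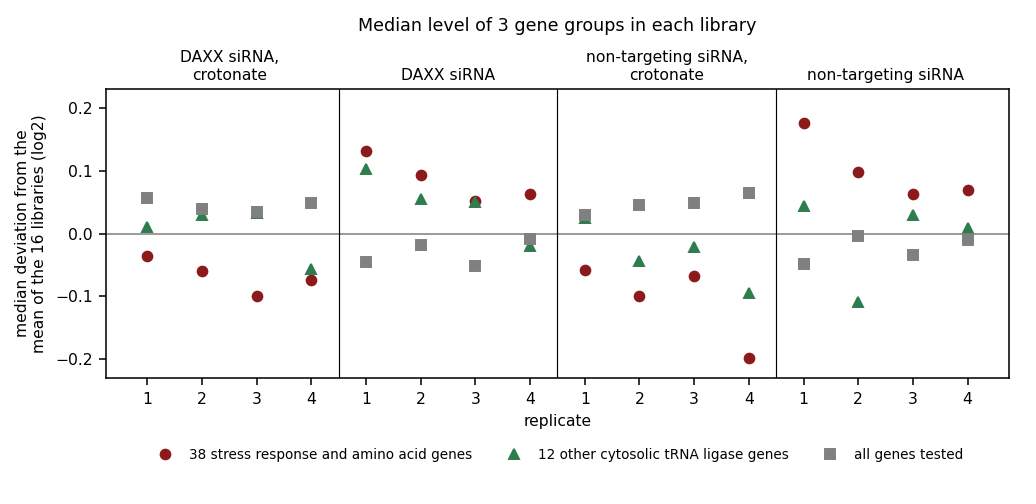
Median deviation of log2 RPM from the mean of the 16 libraries, for the 38 stress response and amino acid genes (circles), 12 other cytosolic tRNA ligase genes (triangles) and all 17973 genes tested (squares), in each library. The circles are below 0 in all 8 libraries with crotonate and above 0 in all 8 without it.

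The promoters of these genes often hold the core of the element that ATF4 and C/EBP proteins bind. The core searched was TGATGNAA (TTNCATCA on the other strand, N being any base), in windows from 250 bases before to 50 after each start in RefSeq, build GRCh38.p14, and it overlaps no other motif searched. Of the 39 genes, 34 matched a window, ligases under their newer names such as AARS1, and 14 of the 34 (41.2%) held the core, against 4.46% of 27305 genes in the promoter table. Its form TGATGCAA was held by 10 of the 34, against 1.08% of all. Among the tRNA ligases, 7 of 10 held the core, while none of 9 matched genes among the other cytosolic ligases did, and 1 of 14 mitochondrial ligases. The set was listed in part as ATF4 targets, so its larger shares may reflect that choice and are not an independent result. The core did not separate genes that fell from the rest. It was held by 7 of 17 matched genes that fell in at least 1 crotonate comparison. Of the other matched genes, among them VLDLR, which was not tested in RNA, 7 of 17 held it. A match describes these letters and is not evidence of binding.

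The stretches around the core are shown for 6 of the 7 genes that held it and fell (TARS1 is the one not shown), to let the core be seen in place, with the core in capitals, each read 5′ to 3′ on the strand of its gene. They show that the core lies at no fixed distance from the start: its first base was 209 bases before the start in CHAC1, 187 in AARS1, 68 in ASNS, 4 in MARS1 and 2 in CARS1, and it was base 38 of the transcript in SLC3A2.
CHAC1, chr15:40953221-40953320, plus strand: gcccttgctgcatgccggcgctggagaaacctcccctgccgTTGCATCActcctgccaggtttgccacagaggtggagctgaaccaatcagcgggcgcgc
AARS1, chr16:70289635-70289744, minus strand: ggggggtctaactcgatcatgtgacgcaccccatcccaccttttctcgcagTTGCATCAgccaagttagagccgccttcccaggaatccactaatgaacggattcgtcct
ASNS, chr7:97872418-97872527, minus strand: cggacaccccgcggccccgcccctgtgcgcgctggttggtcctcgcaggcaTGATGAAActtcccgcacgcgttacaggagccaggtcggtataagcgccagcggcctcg
MARS1, chr12:57488013-57488077, plus strand: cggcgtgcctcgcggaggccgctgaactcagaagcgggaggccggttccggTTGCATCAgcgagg
CARS1, chr11:3057414-3057476, minus strand: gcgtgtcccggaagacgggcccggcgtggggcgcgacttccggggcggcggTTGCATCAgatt
SLC3A2, chr11:62881719-62881748, plus strand: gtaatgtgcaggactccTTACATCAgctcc
AARS1, MARS1, CARS1 and CHAC1 share the same 8 letters, TTGCATCA, while ASNS reads TGATGAAA and SLC3A2 reads TTACATCA.

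Of the 8 regulators, 3 fell with DAXX siRNA (ATF4, ATF5 and DDIT3) and 3 with non-targeting siRNA (ATF4, ATF5 and TRIB3). ATF4 (chr22:39519695-39522685, plus strand) had 243, 287, 300 and 317 RPM with DAXX siRNA and crotonate, against 332, 332, 335 and 333 RPM with DAXX siRNA alone. Its values were 308, 300, 323 and 291 RPM with non-targeting siRNA and crotonate, against 363, 374, 337 and 355 RPM with non-targeting siRNA alone. Every crotonate library lay below every library without it in both backgrounds, with a log2 fold change of -0.22 ± 0.0735 (SE; adjusted p = 0.0446) with DAXX siRNA and -0.23 ± 0.0735 (SE; adjusted p = 0.0429) with non-targeting siRNA. Both calls lay close to the threshold. With DAXX siRNA the ATF4 call was kept only without replicate 3 or 4 of DAXX siRNA with crotonate or replicate 2 or 3 of non-targeting siRNA alone, and the adjusted p reached 0.142 without the lowest library, replicate 1 of DAXX siRNA with crotonate. With non-targeting siRNA it was kept only without replicate 1, 3 or 4 of DAXX siRNA with crotonate or replicate 3 of non-targeting siRNA alone, and reached 0.125 otherwise.

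ATF5, a relative of ATF4 that is also translated under stress, showed the firmest fall among the regulators. ATF5 (chr19:49928702-49933935, plus strand) lay at 20.4, 22.3, 20.7 and 25.6 RPM with DAXX siRNA and crotonate, against 28.1, 30.6, 27.1 and 31.7 RPM with DAXX siRNA alone. With non-targeting siRNA the gene had 18.8, 21, 21.7 and 20.5 RPM with crotonate, against 30.4, 30.3, 25.6 and 29.1 RPM without. The groups did not overlap, and the log2 fold changes were -0.41 ± 0.0905 (SE; adjusted p = 0.00399) with DAXX siRNA and -0.49 ± 0.0905 (SE; adjusted p = 0.000734) with non-targeting siRNA. Genes on the opposite strand overlap ATF5, which averaged 25.2 RPM. AC011452.1, at 18.8 RPM, covers all 5234 bases of it, NUP62, at 140 RPM, shares 1062 bases and IL4I1, at 9.96 RPM, shares 838. Whether counting used strand is not given in the sources used here, so the reads of ATF5 are uncertain if counting ignored strand.

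DDIT3 (CHOP), a transcription factor tied to cell death under lasting stress (chr12:57516588-57521737, minus strand), had 13, 14.9, 17.2 and 15.1 RPM with DAXX siRNA and crotonate, against 17.8, 18.9, 19.4 and 20.5 RPM with DAXX siRNA alone. With non-targeting siRNA the values were 15.7, 15.2, 14 and 13.3 RPM with crotonate, against 14.3, 21.5, 17.2 and 16.1 RPM without. The groups were apart with DAXX siRNA, where the log2 fold change was -0.35 ± 0.114 (SE; adjusted p = 0.0396), and overlapped with non-targeting siRNA, where it was -0.24 ± 0.114 (SE; adjusted p = 0.182). The call was lost without any of 7 libraries, with adjusted p from 0.051 to 0.128: replicates 2, 3 and 4 of DAXX siRNA alone, replicates 1, 2 and 4 of DAXX siRNA with crotonate, and replicate 3 of non-targeting siRNA with crotonate. DDIT3 averaged 16.5 RPM and shares 982 bases with MARS on the opposite strand, at 222 RPM, so that its reads are uncertain if counting ignored strand.

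TRIB3, a pseudokinase induced by ATF4 that restrains ATF4 in turn (chr20:362835-397559, plus strand), had 87.9, 75.2, 71.2 and 89.5 RPM with DAXX siRNA and crotonate, against 86.2, 87.8, 84.9 and 90.7 RPM with DAXX siRNA alone. The values with non-targeting siRNA were 66.6, 65.9, 63.8 and 57.5 RPM with crotonate, against 80.5, 95.5, 77 and 67.5 RPM without. They were apart with non-targeting siRNA, where the log2 fold change was -0.33 ± 0.0962 (SE; adjusted p = 0.0245), and overlapped with DAXX siRNA, where it was -0.12 ± 0.0962 (SE; adjusted p = 0.478). The call was lost without replicate 1 or 2 of non-targeting siRNA alone or replicate 3 or 4 of non-targeting siRNA with crotonate, at an adjusted p of 0.0529 to 0.0925.

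The other 4 regulators were not called. CEBPB, a C/EBP factor, had log2 fold changes of 0.30 ± 0.218 (SE) with DAXX siRNA and 0.19 ± 0.218 (SE) with non-targeting siRNA, and ranged widely between libraries of 1 group, from 45.4 to 104 RPM with DAXX siRNA and crotonate. CEBPG, a partner of ATF4, had -0.10 ± 0.0887 (SE) and -0.12 ± 0.0887 (SE). PPP1R15A (GADD34), which recruits the phosphatase that reverses eIF2 phosphorylation, had -0.09 ± 0.0959 (SE) and -0.17 ± 0.0959 (SE). NUPR1, a small stress-induced chromatin protein, was near the detection limit: it lay at 0.155, 0.141, 0.0675 and 0.144 RPM with DAXX siRNA and crotonate, against 0.228, 0.556, 0.199 and 0.39 RPM with DAXX siRNA alone, with a log2 fold change of -1.38 ± 0.541 (SE; adjusted p = 0.095) that rests on few reads.

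Among the effectors, CHAC1 and STC2 fell in both comparisons and had the lowest log2 fold changes of all the called genes with non-targeting siRNA. CHAC1, a glutathione-degrading enzyme and a sensitive ATF4 target (chr15:40952962-40956512, plus strand), had 7.58, 7.55, 6.1 and 9.36 RPM with DAXX siRNA and crotonate, against 10.6, 10.5, 11.2 and 9.48 RPM with DAXX siRNA alone. Cells with non-targeting siRNA held 7.6, 7.16, 7.88 and 7.06 RPM with crotonate, against 12.2, 14.6, 10.4 and 9.63 RPM without. No library of 1 group reached the range of the other, and the log2 fold changes were -0.46 ± 0.132 (SE; adjusted p = 0.0212) with DAXX siRNA and -0.64 ± 0.132 (SE; adjusted p = 0.00216) with non-targeting siRNA. With DAXX siRNA the call was lost without replicate 1 or 3 of DAXX siRNA alone or replicate 3 of DAXX siRNA with crotonate, at an adjusted p of 0.0516 to 0.0732.

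STC2, a secreted glycoprotein (chr5:173314713-173329503, minus strand), had 58.9, 64, 58.6 and 69.1 RPM with DAXX siRNA and crotonate, against 84.1, 95.9, 81.9 and 82.4 RPM with DAXX siRNA alone. Its level was 54.1, 58.6, 54.7 and 51.1 RPM with non-targeting siRNA and crotonate, against 84.4, 85.5, 85.8 and 74.9 RPM with non-targeting siRNA alone. The 8 crotonate libraries all lay below the 8 others, and the log2 fold changes were -0.46 ± 0.0783 (SE; adjusted p = 0.00037) with DAXX siRNA and -0.60 ± 0.0783 (SE; adjusted p = 2.43e-05) with non-targeting siRNA, the smallest adjusted p of the gene set in each comparison. The other effectors tested were not called. DDIT4 (REDD1), an inhibitor of mTORC1, varied within groups, from 114 to 190 RPM with DAXX siRNA and crotonate against 157 to 254 RPM with DAXX siRNA alone, and from 123 to 195 RPM with non-targeting siRNA and crotonate against 146 to 287 RPM without. Its log2 fold changes were -0.40 ± 0.195 (SE) with DAXX siRNA and -0.42 ± 0.195 (SE) with non-targeting siRNA, both short of the threshold with adjusted p of 0.197 and 0.17. SESN2, another inhibitor of mTORC1 signalling, had log2 fold changes of 0.07 ± 0.108 (SE) with DAXX siRNA and -0.21 ± 0.108 (SE) with non-targeting siRNA.

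**Figure D3:**
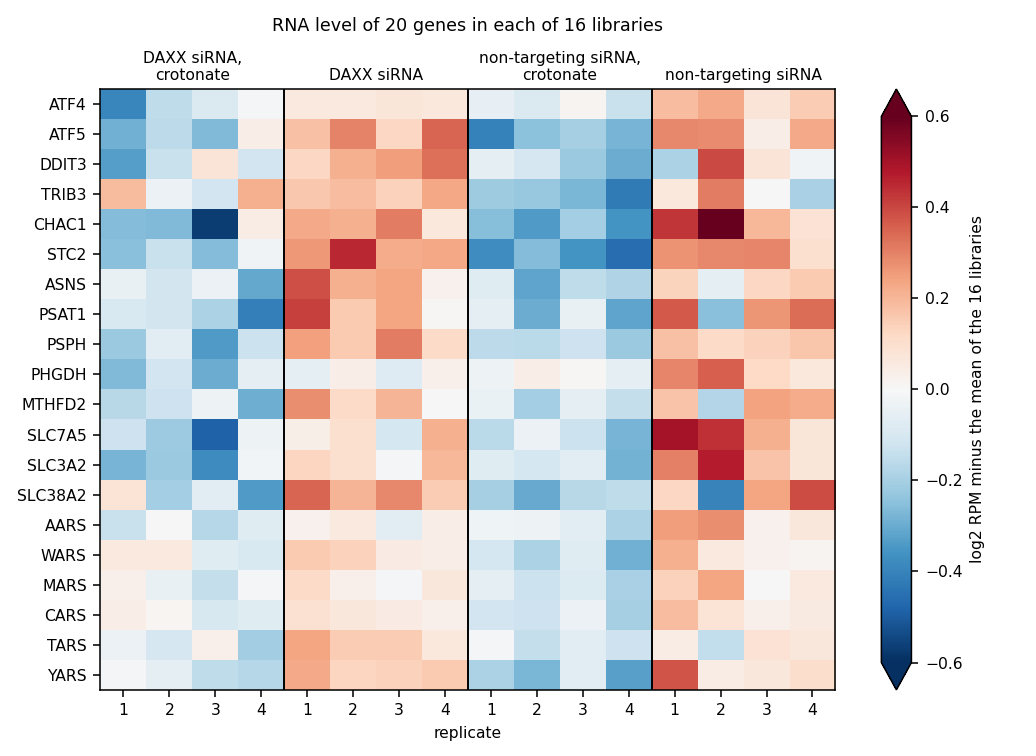
Log2 RPM of the 20 genes of the set given in full, minus each gene's mean over the 16 libraries, with the 4 groups set apart by vertical lines (red above the mean, blue below). The crotonate groups, the blocks to the left of each pair, are mainly blue and the others mainly red, with single libraries that depart from their group such as SLC38A2 in replicate 2 of non-targeting siRNA alone.

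Of the 8 genes of amino acid synthesis, 4 fell with DAXX siRNA (ASNS, PSAT1, PSPH and MTHFD2) and 2 with non-targeting siRNA (ASNS and PSPH). ASNS, which makes asparagine from aspartate (chr7:97851677-97872542, minus strand), had 158, 151, 159 and 132 RPM with DAXX siRNA and crotonate, against 213, 189, 192 and 166 RPM with DAXX siRNA alone. With non-targeting siRNA it had 155, 131, 147 and 144 RPM with crotonate, against 179, 157, 178 and 182 RPM without. Crotonate libraries were below the others in both backgrounds, if by little with non-targeting siRNA, and the log2 fold changes were -0.34 ± 0.0845 (SE; adjusted p = 0.00879) with DAXX siRNA and -0.27 ± 0.0845 (SE; adjusted p = 0.0352) with non-targeting siRNA. The second call was lost without replicate 1, 3 or 4 of non-targeting siRNA alone or replicate 2, 3 or 4 of non-targeting siRNA with crotonate, at an adjusted p of 0.0646 to 0.123. ASNS overlaps a second annotated gene on the same strand, AC079781.5, whose 163 RPM against 165 RPM for ASNS come from largely the same stretch, so that the 2 are not separate measurements.

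PHGDH, PSAT1 and PSPH form the pathway that makes serine from a glycolytic intermediate. PHGDH, its first enzyme (chr1:119648411-119744226, plus strand), had 102, 113, 99.8 and 118 RPM with DAXX siRNA and crotonate, against 118, 126, 116 and 125 RPM with DAXX siRNA alone, and 120, 126, 123 and 118 RPM with non-targeting siRNA and crotonate, against 150, 157, 133 and 128 RPM without. It was not called, with log2 fold changes of -0.17 ± 0.0759 (SE; adjusted p = 0.163) with DAXX siRNA and -0.22 ± 0.0759 (SE; adjusted p = 0.0568) with non-targeting siRNA, although the non-targeting groups did not overlap. It passed with non-targeting siRNA without replicate 1 or 4 of DAXX siRNA with crotonate or replicate 3 or 4 of non-targeting siRNA alone, at an adjusted p of 0.0266 to 0.0493.

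PSAT1, the second enzyme (chr9:78297125-78330093, plus strand), had 181, 179, 169 and 145 RPM with DAXX siRNA and crotonate, against 256, 215, 227 and 194 RPM with DAXX siRNA alone. Under non-targeting siRNA the level was 185, 157, 187 and 155 RPM with crotonate, against 249, 162, 232 and 243 RPM without, where replicate 2 lay among the crotonate libraries. The log2 fold change passed the test with DAXX siRNA, at -0.40 ± 0.122 (SE; adjusted p = 0.0285), and just missed it with non-targeting siRNA, at -0.36 ± 0.122 (SE; adjusted p = 0.0508). Without that replicate 2 the second became -0.51 with an adjusted p of 0.000966, and it also passed without replicate 1 or 4 of DAXX siRNA alone or replicate 4 of DAXX siRNA with crotonate, at 0.0405 to 0.0488. The first was lost without replicate 1 or 3 of DAXX siRNA alone or replicate 4 of DAXX siRNA with crotonate, at an adjusted p of 0.0713 to 0.108.

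PSPH, the last enzyme, fell most firmly of the synthesis genes. PSPH (chr7:56011051-56051604, minus strand) had 32.6, 36.4, 30.1 and 34.8 RPM with DAXX siRNA and crotonate, against 45.2, 42.5, 47.1 and 41.3 RPM with DAXX siRNA alone. It stood at 34.2, 34.1, 35 and 32.6 RPM with non-targeting siRNA and crotonate, against 43.1, 41.2, 42 and 42.8 RPM without. The ranges were narrow and apart, with log2 fold changes of -0.40 ± 0.0734 (SE; adjusted p = 0.000793) with DAXX siRNA and -0.32 ± 0.0734 (SE; adjusted p = 0.00535) with non-targeting siRNA.

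MTHFD2, a mitochondrial enzyme of one-carbon metabolism that uses serine-derived units (chr2:74198610-74217565, plus strand), had 364, 376, 400 and 334 RPM with DAXX siRNA and crotonate, against 497, 443, 471 and 409 RPM with DAXX siRNA alone. In the non-targeting arm the values were 398, 355, 394 and 370 RPM with crotonate, against 461, 362, 484 and 478 RPM without, and replicate 2 of the last group was again the low one. The log2 fold change was -0.30 ± 0.0901 (SE; adjusted p = 0.0268) with DAXX siRNA and -0.23 ± 0.0901 (SE; adjusted p = 0.0978) with non-targeting siRNA. The call was lost without replicate 1 or 3 of DAXX siRNA alone or replicate 1, 2 or 4 of DAXX siRNA with crotonate, at an adjusted p of 0.0512 to 0.0984, and a call was gained with non-targeting siRNA, at 0.00487, without the low replicate 2.

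The other 3 enzymes were not called. SHMT2, which splits serine to glycine in mitochondria, had log2 fold changes of 0.00 ± 0.0702 (SE) with DAXX siRNA and -0.04 ± 0.0702 (SE) with non-targeting siRNA. ALDH18A1, at the head of proline synthesis, had 0.08 ± 0.0647 (SE) and -0.02 ± 0.0647 (SE). PYCR1, which completes proline, had -0.01 ± 0.0946 (SE) and -0.11 ± 0.0946 (SE).

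Of the 6 transporters, SLC3A2 fell in both comparisons, SLC38A2 with DAXX siRNA and SLC7A5 with non-targeting siRNA. SLC7A5 (LAT1), which carries leucine and other large neutral amino acids (chr16:87830023-87869507, minus strand), had 793, 741, 617 and 846 RPM with DAXX siRNA and crotonate, against 885, 921, 802 and 1000 RPM with DAXX siRNA alone. Under non-targeting siRNA it had 771, 841, 788 and 712 RPM with crotonate, against 1220, 1170, 1000 and 908 RPM without. The groups were apart with non-targeting siRNA, where the log2 fold change was -0.46 ± 0.104 (SE; adjusted p = 0.00436), and overlapped with DAXX siRNA, where it was -0.27 ± 0.104 (SE; adjusted p = 0.0861). Without replicate 4 of DAXX siRNA with crotonate, the highest of its group, SLC7A5 passed with DAXX siRNA as well, at -0.34 with an adjusted p of 0.0434.

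SLC3A2 (CD98), the heavy chain that brings SLC7A5 to the membrane (chr11:62856102-62888875, plus strand), had 331, 344, 309 and 397 RPM with DAXX siRNA and crotonate, against 439, 429, 398 and 461 RPM with DAXX siRNA alone. Its values with non-targeting siRNA were 382, 373, 383 and 330 RPM with crotonate, against 496, 556, 452 and 423 RPM without. Both pairs of groups were apart, with log2 fold changes of -0.33 ± 0.0901 (SE; adjusted p = 0.0169) with DAXX siRNA and -0.39 ± 0.0901 (SE; adjusted p = 0.00527) with non-targeting siRNA. The first call was lost without replicate 4 of DAXX siRNA alone or replicate 3 of DAXX siRNA with crotonate, at an adjusted p of 0.0511 and 0.0535.

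SLC38A2 (SNAT2), a carrier of small neutral amino acids such as glutamine and alanine (chr12:46358188-46372773, minus strand), had 717, 588, 645 and 534 RPM with DAXX siRNA and crotonate, against 861, 779, 827 and 752 RPM with DAXX siRNA alone. Cells with non-targeting siRNA held 590, 549, 603 and 608 RPM with crotonate, against 738, 512, 797 and 888 RPM without, of which replicate 2 was below every crotonate library. The log2 fold change was -0.38 ± 0.124 (SE; adjusted p = 0.0419) with DAXX siRNA and -0.29 ± 0.124 (SE; adjusted p = 0.123) with non-targeting siRNA, and -0.46 with an adjusted p of 0.00117 (SLC38A2, non-targeting siRNA) without that replicate. The call with DAXX siRNA was among the weakest: it was lost, at an adjusted p of 0.0501 to 0.121, without any of 11 libraries, and kept only without replicate 4 of DAXX siRNA alone, replicate 1 of DAXX siRNA with crotonate, or replicate 2, 3 or 4 of non-targeting siRNA alone.

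The remaining transporters were not called. SLC7A1, which imports arginine and lysine, had log2 fold changes of 0.03 ± 0.0718 (SE) with DAXX siRNA and -0.20 ± 0.0718 (SE) with non-targeting siRNA. SLC1A5 (ASCT2), the main glutamine importer of many tumour lines, had -0.11 ± 0.0902 (SE) and -0.23 ± 0.0902 (SE). SLC1A4 (ASCT1), a carrier of alanine, serine and cysteine, leaned the other way, at 0.17 ± 0.106 (SE) and 0.27 ± 0.106 (SE) with adjusted p of 0.307 and 0.0958. SLC7A11, the cystine importer and a known ATF4 target outside the set, was followed for comparison. It had 105, 84.6, 91.3 and 76.4 RPM with DAXX siRNA and crotonate, against 104, 89.3, 88.1 and 86.5 RPM with DAXX siRNA alone, and 92.2, 87.4, 98.2 and 89.4 RPM with non-targeting siRNA and crotonate, against 96.1, 64.8, 100 and 111 RPM without. The groups overlapped, and the log2 fold changes were -0.05 ± 0.128 (SE; adjusted p = 0.856) and 0.01 ± 0.128 (SE; adjusted p = 0.975), whose sign changed under some of the settings given in the closing section.

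Transfer RNA ligases attach amino acids to their tRNAs. All 11 ligases of the set had a log2 fold change below 0 in both backgrounds, with 2 called with DAXX siRNA (TARS and YARS) and 5 with non-targeting siRNA (AARS, WARS, MARS, CARS and YARS). YARS, for tyrosine (chr1:32775237-32818153, minus strand), had 179, 173, 162 and 160 RPM with DAXX siRNA and crotonate, against 211, 197, 198 and 201 RPM with DAXX siRNA alone. The non-targeting libraries had 158, 149, 172 and 144 RPM with crotonate, against 234, 186, 189 and 194 RPM without. Its groups were apart in both backgrounds, and its log2 fold changes, -0.26 ± 0.0783 (SE; adjusted p = 0.029) with DAXX siRNA and -0.36 ± 0.0783 (SE; adjusted p = 0.00305) with non-targeting siRNA, were the lowest of the ligases. The first call was lost without any 1 replicate of DAXX siRNA alone or without replicate 2, 3 or 4 of DAXX siRNA with crotonate, at an adjusted p of 0.0502 to 0.0888.

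TARS, for threonine (chr5:33440696-33469539, plus strand), had 276, 264, 289 and 245 RPM with DAXX siRNA and crotonate, against 333, 314, 314 and 295 RPM with DAXX siRNA alone. It had 281, 256, 270 and 259 RPM with non-targeting siRNA and crotonate, against 292, 255, 300 and 296 RPM without. The groups were apart only with DAXX siRNA, where the log2 fold change was -0.23 ± 0.0713 (SE; adjusted p = 0.0345), against -0.10 ± 0.0713 (SE; adjusted p = 0.4) with non-targeting siRNA. That call was lost without replicate 1, 2 or 3 of DAXX siRNA alone or replicate 2 or 4 of DAXX siRNA with crotonate, at an adjusted p of 0.0725 to 0.113.

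The other 4 ligases called with non-targeting siRNA fell there by similar amounts and were not called with DAXX siRNA. AARS, for alanine (chr16:70252295-70289543, minus strand), had 240, 239, 233 and 214 RPM with non-targeting siRNA and crotonate, against 291, 296, 249 and 256 RPM without, and 223, 245, 217 and 232 RPM with DAXX siRNA and crotonate, against 249, 254, 234 and 251 RPM with DAXX siRNA alone. WARS, for tryptophan (chr14:100333790-100376805, minus strand), had 125, 118, 128 and 110 RPM with non-targeting siRNA and crotonate, against 156, 140, 137 and 136 RPM without, and 140, 140, 128 and 126 RPM with DAXX siRNA and crotonate, against 150, 148, 139 and 138 RPM with DAXX siRNA alone. For both, the groups were apart with non-targeting siRNA and overlapped with DAXX siRNA. MARS, for methionine (chr12:57475445-57517569, plus strand), had 213, 202, 209 and 193 RPM with non-targeting siRNA and crotonate, against 243, 260, 221 and 230 RPM without, and 226, 214, 200 and 219 RPM with DAXX siRNA and crotonate, against 239, 226, 219 and 232 RPM with DAXX siRNA alone. CARS, for cysteine (chr11:3000922-3057613, minus strand), had 84.6, 83.9, 89.3 and 79.7 RPM with non-targeting siRNA and crotonate, against 104, 96.9, 93.5 and 94.9 RPM without, and 94, 92.2, 85.5 and 87.1 RPM with DAXX siRNA and crotonate, against 97.6, 96, 94.8 and 93.5 RPM with DAXX siRNA alone. MARS and CARS were likewise apart with non-targeting siRNA and overlapped with DAXX siRNA.

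In the comparison with non-targeting siRNA the log2 fold changes were -0.24 ± 0.071 (SE; adjusted p = 0.0287) for AARS, -0.24 ± 0.0706 (SE; adjusted p = 0.0244) for WARS, -0.22 ± 0.0666 (SE; adjusted p = 0.0284) for MARS and -0.21 ± 0.0634 (SE; adjusted p = 0.0316) for CARS. With DAXX siRNA they were -0.11 ± 0.071 (SE), -0.11 ± 0.0706 (SE), -0.09 ± 0.0666 (SE) and -0.09 ± 0.0634 (SE), with adjusted p from 0.334 to 0.398. Each of the 4 calls was lost without replicate 1 of non-targeting siRNA alone and without replicate 4 of non-targeting siRNA with crotonate, with adjusted p of 0.0606 to 0.11 over all their losses. AARS was also lost without replicate 2 of the first group and replicate 3 of the second, WARS without replicate 2 of the second, MARS without replicate 2 of either, and CARS without replicate 1 or 2 of the second. Of the other ligases, GARS, SARS, NARS, IARS and EPRS, none was called, with log2 fold changes from -0.11 to -0.04 with DAXX siRNA and from -0.20 to -0.02 with non-targeting siRNA. XPOT, which exports tRNA from the nucleus, had -0.07 ± 0.0922 (SE) and -0.04 ± 0.0922 (SE).

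**Figure D4:**
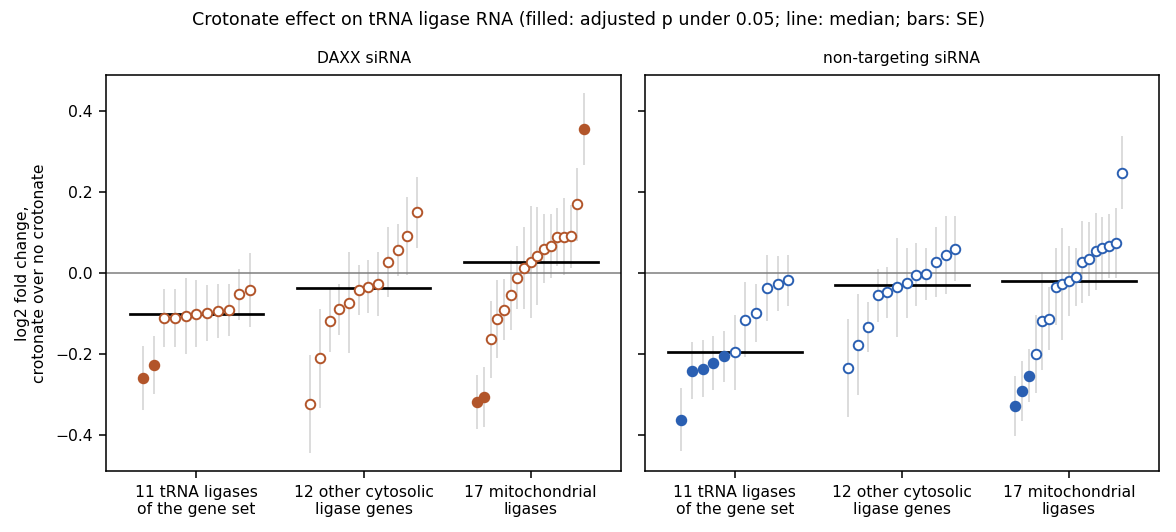
Log2 fold change, crotonate over no crotonate, of tRNA ligase genes in cells with DAXX siRNA (left) and non-targeting siRNA (right), for the 11 ligases of the set, 12 genes of other cytosolic ligases and their complex, and 17 mitochondrial ligases; filled points have an adjusted p under 0.05, bars are standard errors and horizontal lines are medians. The medians are -0.10 and -0.20 for the set, against -0.04 and -0.03 for the other cytosolic genes and 0.03 and -0.02 for the mitochondrial ones.

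Other genes of the same pathways were counted against the same background, in which 2.41% of all genes fell and 13.0% rose with DAXX siRNA, and 2.34% fell and 13.1% rose with non-targeting siRNA. None of 12 other cytosolic ligase genes, which cover the ligases left out of the set and 3 scaffold proteins of their complex, was called in either crotonate comparison, with medians of -0.04 with DAXX siRNA and -0.03 with non-targeting siRNA. At an unadjusted p under 0.05 there was 1 in each (8.33%), against 27.4% of all genes with DAXX siRNA and 28% with non-targeting siRNA. Of 17 mitochondrial ligases, YARS2 and HARS2 fell (11.8% of the list) and TARS2 rose with DAXX siRNA, and YARS2, HARS2 and MARS2 fell (17.6%) with non-targeting siRNA. Of the 11 ligases of the set, 18.2% and 45.5% fell. The difference between these lists was not tested, and the lists were chosen with earlier results of these data known. HARS2 had log2 fold changes of -0.31 ± 0.074 (SE; adjusted p = 0.00704) with DAXX siRNA and -0.33 ± 0.074 (SE; adjusted p = 0.00417) with non-targeting siRNA, and YARS2 had -0.32 ± 0.0664 (SE; adjusted p = 0.00223) and -0.25 ± 0.0664 (SE; adjusted p = 0.0124). Of 18 further ATF4 targets that were tested, none was called with DAXX siRNA. With non-targeting siRNA 1 was called, MTHFD1L of mitochondrial one-carbon metabolism, at -0.32 ± 0.0689 (SE; adjusted p = 0.00269). There were 6 at an unadjusted p under 0.05 with DAXX siRNA (33.3%, against 27.4% of all genes). With non-targeting siRNA there were 4 (22.2%, against 28%). The medians of the 18 were -0.04 and 0.01, and 8 and 10 of them had a log2 fold change above 0.

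Upstream of ATF4, 17 genes of the eIF2 kinases and their helpers, eIF2 and its exchange factor were tested. EIF2S2, the beta subunit of eIF2, fell with DAXX siRNA, at -0.32 ± 0.0983 (SE; adjusted p = 0.0311). GCN1, which activates the amino acid sensing kinase GCN2, fell with non-targeting siRNA, at -0.30 ± 0.0836 (SE; adjusted p = 0.0172). No other was called, and the medians were -0.03 and 0.00. Chaperones and folding enzymes of the endoplasmic reticulum, which answer to a separate branch of the unfolded protein response, held 14 genes, of which PDIA4 rose with DAXX siRNA (7.14%, against 13.0% of all genes). With non-targeting siRNA, PDIA4, SEL1L and DNAJC3 rose (21.4%, against 13.1%). None of the 14 was called lower in either, where 2.41% and 2.34% of all genes were. PDIA4, a disulfide isomerase, had 582, 628, 626 and 623 RPM with DAXX siRNA and crotonate, against 546, 532, 540 and 525 RPM with DAXX siRNA alone, a log2 fold change of 0.20 ± 0.0552 (SE; adjusted p = 0.0186). With non-targeting siRNA it was 0.28 ± 0.0552 (SE; adjusted p = 0.00129).

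DAXX siRNA called none of the 38 genes, either without crotonate or with it. Without crotonate, 0.306% of all genes fell and 0.100% rose, and with crotonate 0.668% fell and 0.389% rose. At an unadjusted p under 0.05 there were 3 of 38 without crotonate (PHGDH, ALDH18A1 and SLC7A5, all lower with DAXX siRNA) against 12.2% of all genes, and 6 of 38 with crotonate against 10.9% of all genes. Limma on reads recovered from the values (voom) also called none of the 38. PHGDH had a log2 fold change of -0.23 ± 0.0759 (SE; adjusted p = 0.239) for DAXX siRNA over non-targeting siRNA without crotonate and -0.17 ± 0.0759 (SE; adjusted p = 0.389) with crotonate. TRIB3 and SESN2 were above non-targeting siRNA in every crotonate library with DAXX siRNA, at 0.35 ± 0.0962 (SE; adjusted p = 0.0977) and 0.39 ± 0.108 (SE; adjusted p = 0.0965), and did not pass. When 1 library was left out, at most 2 of the 38 were called in that comparison, without replicate 2 of non-targeting siRNA alone. Among the further ATF4 targets, and named after its values were seen, the death receptor gene TNFRSF10B fell with DAXX siRNA in both, at -0.38 ± 0.059 (SE; adjusted p = 0.00236) without crotonate and -0.36 ± 0.059 (SE; adjusted p = 0.00219) with it.

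Whether crotonate acted differently with DAXX siRNA than with non-targeting siRNA was tested as an interaction over the 16 libraries. It called none of the 17973 genes (433 at an unadjusted p under 0.05, 1 of them in the set, and 0 genes by voom). For the 38 genes the difference of the 2 log2 fold changes, DAXX siRNA minus non-targeting siRNA, had a median of 0.07 and was above 0 for 25 genes. The 1 gene was SLC7A1, at 0.22 with a 95% interval from 0.01 to 0.43. For TRIB3 the difference was 0.21 (95% interval -0.07 to 0.5), for SLC7A5 0.18 (95% interval -0.12 to 0.49) and for ATF4 0.00 (95% interval -0.22 to 0.22). A difference of 0.2 lies within the intervals of all 4 genes. Of the 4, ATF4 alone has an interval that also holds -0.2.

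At chromatin, all 34 regions at the starts of these genes held more Kcr signal than the input library, as did 49895 of all 49916 regions. The median log2 difference from input was 1.03 at the starts, from 0.47 to 1.88, against 0.90 over all regions. This is a description, since there was 1 input. The deposited values are log2 reads per region after scaling by the authors, and none of the 49916 regions differed at an adjusted p under 0.05 in any of the 4 comparisons (0%, limma). The Kcr groups with crotonate held only replicates 2 and 3, while those without it also held replicate 1, so the comparison was not balanced for replicate. With crotonate, scaled Kcr signal at the starts leaned lower. The log2 difference was also below 0 at 35919 of the 49916 regions with DAXX siRNA and at 37158 with non-targeting siRNA. The scaling factors are not given, so whether the total Kcr of the cells changed cannot be told from these values. The median log2 difference at the 34 starts was -0.27 with DAXX siRNA, with 30 of 34 below 0, and -0.37 with non-targeting siRNA, with all 34 below 0, against -0.16 and -0.19 over all regions. Starts of well-expressed genes in general leaned as far: 7022 regions within 2 kb of the start of any gene with a mean log2 RPM of at least 4, a set chosen after the data were seen, had medians of -0.28 with DAXX siRNA and -0.35 with non-targeting siRNA.

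At an unadjusted p under 0.05, 7 of 34 starts differed with DAXX siRNA and 14 of 34 with non-targeting siRNA, against 20.4% and 34.4% of those 7022 regions and 8.50% and 13.3% of all regions. Over the 45 regions that carry a gene's symbol it was 4 and 13, with medians of -0.24 and -0.36. Centring each library on its median region moved the medians at the 34 starts to -0.13 and -0.20. Those at starts of well-expressed genes became -0.15 and -0.17, and those of all regions -0.02 and -0.02. Split by the RNA call, with DAXX siRNA the median Kcr difference was -0.34 at the starts of 12 genes whose RNA fell and -0.21 at the 22 others. With non-targeting siRNA it was -0.34 at 12 and -0.38 at 22. The 22 include VLDLR, which was not tested in RNA. These are descriptions, and the difference between such genes was not tested.

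The lowest p belonged to YARS, whose RNA fell in both comparisons. Its region, chr1:32815951-32819700, had log2 values of 6.13 and 6.06 in replicates 2 and 3 with non-targeting siRNA and crotonate, against 7.10, 7.13 and 6.93 in replicates 1, 2 and 3 with non-targeting siRNA alone, and 6.88 and 6.43 with DAXX siRNA and crotonate, against 6.87, 6.92 and 6.68 with DAXX siRNA alone. The log2 difference was -0.96 ± 0.185 (SE; adjusted p = 0.169) with non-targeting siRNA, where the groups were apart, and -0.17 ± 0.185 (SE; adjusted p = 0.795) with DAXX siRNA, where they overlapped. It passed the threshold when the 2 libraries of replicate 1 were kept apart (adjusted p = 0.03). That setting counts 2 libraries of 1 replicate as 2 samples, although they differed about as much as sampling noise. Among regions annotated with a symbol of the set, the next lowest p with non-targeting siRNA were at SLC7A5, with 7.48 and 7.42 with crotonate against 8.10, 7.85 and 7.85 without (-0.48 ± 0.158 SE, adjusted p = 0.246), and at SLC38A2, with 6.70 and 6.11 against 7.02, 7.10 and 6.85 (-0.59 ± 0.221 SE, adjusted p = 0.282). Their groups did not overlap, and as at YARS the crotonate samples all lay below the others. This held for 13300 of all 49916 regions with non-targeting siRNA, and for 3539 of the 7022 at starts of well-expressed genes. At GARS, whose start lies in a region annotated to another gene, the difference was -0.73 ± 0.206 (SE, adjusted p = 0.226).

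With DAXX siRNA the lowest p were at the starts of XPOT, CHAC1 and ASNS. XPOT had log2 values of 5.95 and 5.63 with crotonate, against 6.67, 6.53 and 6.23 without (-0.69 ± 0.21 SE, adjusted p = 0.515). CHAC1 had 5.49 and 4.55, against 6.01, 5.53 and 5.98 (-0.82 ± 0.281 SE, adjusted p = 0.515), and ASNS had 5.07 and 4.70, against 5.63, 5.53 and 5.61 (-0.70 ± 0.266 SE, adjusted p = 0.531). In all 3 the crotonate samples were below the others, with replicate 3 the lower of each pair. With DAXX siRNA, the crotonate samples all lay below the others in 10110 of all 49916 regions. The same held in 2081 of the 7022 at starts of well-expressed genes. CHAC1 gained a call, at an adjusted p of 0.0409, when its higher crotonate sample, replicate 2, was left out and the lone sample was assumed to vary like the other groups. At ATF4, whose start lies in a region annotated to the neighbouring MIEF1, the log2 difference was -0.37 ± 0.176 (SE, adjusted p = 0.577) with DAXX siRNA and -0.30 ± 0.176 (SE, adjusted p = 0.46) with non-targeting siRNA. At STC2 it was -0.31 ± 0.182 (SE, adjusted p = 0.627) and -0.47 ± 0.182 (SE, adjusted p = 0.29).

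**Figure D5:**
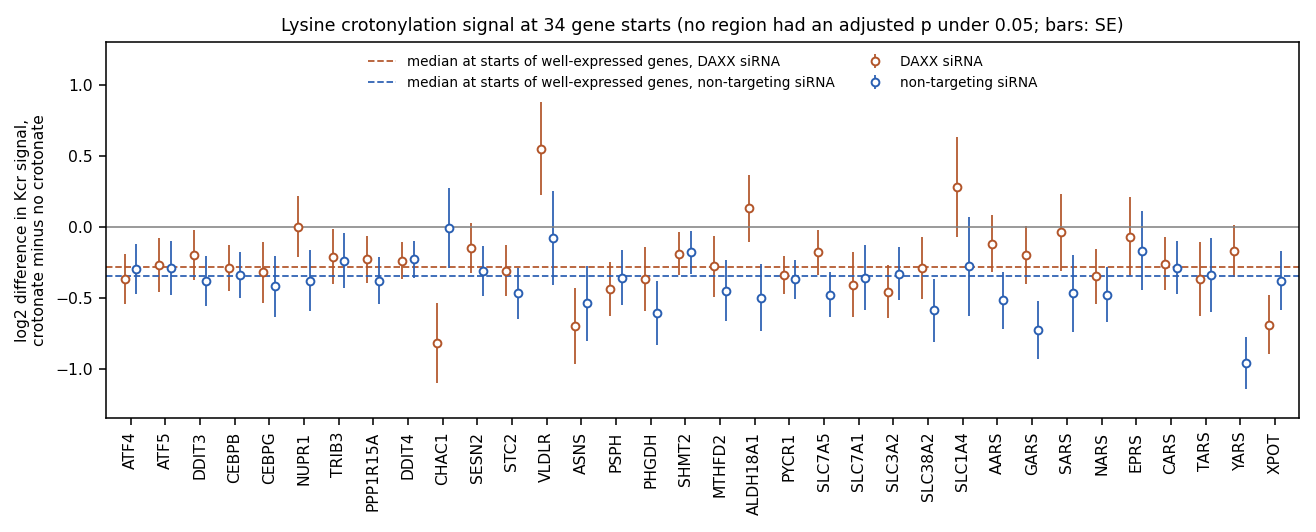
Log2 difference in Kcr signal, crotonate minus no crotonate, with its standard error, at the region nearest the start of each of 34 genes, in cells with DAXX siRNA (brown) and non-targeting siRNA (blue); dashed lines are the medians of 7022 regions at the starts of well-expressed genes, -0.28 and -0.35. Most points scatter around the dashed line of their colour, and YARS with non-targeting siRNA is the lowest at -0.96.

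For DAXX siRNA over non-targeting siRNA, Kcr at the starts had a median log2 difference of 0.01 without crotonate and 0.10 with it, against 0.01 and 0.05 over all regions. No region was called, and 2 of 34 starts had an unadjusted p under 0.05 in each, against 2.38% and 4.17% of all regions. At the 7022 regions at starts of well-expressed genes the medians were 0.03 without crotonate and 0.09 with it. Of those regions, 1.04% and 3.96% had an unadjusted p under 0.05. The regions annotated with a symbol of the set that had the lowest p without crotonate were those of NUPR1 (-0.43 ± 0.193 SE), SLC7A1 (0.67 ± 0.37 SE, inside the gene) and YARS (-0.23 ± 0.166 SE), each with an adjusted p of 1, and with crotonate those of YARS (0.56 ± 0.203 SE), AARS (0.45 ± 0.219 SE) and MARS (0.46 ± 0.235 SE, away from its start), each with an adjusted p of 0.999.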

How the data were processed

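RNA was measured in 16 libraries and crotonylated-lysine chromatin in 12 libraries and 1 input. The authors deposited log2 values: log2 RPM per gene (not divided by length) for RNA and log2 scaled reads per region for chromatin, with 0 reads entered just under 1 read. Per the submitters' processing notes, reads were trimmed with Trim Galore 0.6.2 (RNA) or 0.6.5 (chromatin) and cutadapt 2.3, and aligned to GRCh38 with HISAT2 2.2.1 (RNA) or Bowtie2 (chromatin), and MACS was used; for the strand setting of counting and the chromatin scaling factors, the value is not given in the sources used here. All coordinates are GRCh38.

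Each table was fitted as a whole with limma 3.58.1 (R 4.3.3), 1 mean per group, a trended prior variance, no replicate block, and two-sided tests with Benjamini-Hochberg adjustment over all genes or regions; calls have an adjusted p under 0.05. Chromatin libraries 1A and 1B of a group were averaged to 1 sample, since they differed about as much as sampling noise (chi-square over degrees of freedom 1.013 and 1.006, against 1.036 to 1.379 for other pairs). Depth sets the counting error of low genes; intervals cover the spread between libraries. The fit was also run on simulated counts. Their spread between libraries was set alike in every group with no outlying library, so that run does not cover libraries that depart from their group. Values in every library are given for 7 fixed genes (ATF4, DDIT3, TRIB3, ASNS, CHAC1, PHGDH, SLC7A11) and each member called in an RNA comparison; from other lists up to 4 genes of smallest p, and up to 3 annotated regions per chromatin comparison. The members and lists were chosen with earlier results of these data known. Alternatives in scaling, filter, pseudocount, test, samples and replicates were run. One marker gene of another cell type is not reported here.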

Additional observations from a re-analysis of the deposited data

Results flagged for a closer look

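In 84 groups of 4 libraries, 21 genes in 4 groups, 5 had 1 library that stood far from the other 3 by Dixon's criterion (the gap set against the group's range), where chance gives about 1 in 20 groups. STC2 was at 95.9 RPM in replicate 2 of DAXX siRNA alone, against 81.9 to 84.1 RPM in the others, and at 74.9 RPM in replicate 4 of non-targeting siRNA alone, against 84.4 to 85.8 RPM. Leaving out either library kept both STC2 calls.

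ASNS was at 157 RPM in replicate 2 of non-targeting siRNA alone, against 178 to 182 RPM in the others. YARS was at 234 RPM in replicate 1 of non-targeting siRNA alone, against 186 to 194 RPM, and its call with non-targeting siRNA was kept without that library. SLC7A11, which was not called, was at 104 RPM in replicate 1 of DAXX siRNA alone, against 86.5 to 89.3 RPM.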

How the results depend on the processing

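The direction of the called genes held under every alternative run. The count of the 38 genes that fell with crotonate and non-targeting siRNA, 14, became 25 with each library centred on its median gene and 9 with only the 2 groups compared, and lay between 7 and 16 when 1 library was left out (leave-one-out). With DAXX siRNA the count, 13, became 7 with no filter and 8 with no trend in the prior variance, and lay between 5 and 13 in the leave-one-outs. For DAXX siRNA over non-targeting siRNA with crotonate, between 0 and 2 genes were higher in the leave-one-outs. Beyond what these constructions change, the cause was not tested.

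SLC7A11 changed sign without being called: with non-targeting siRNA it was -0.12 with centring, -0.01 with quantile scaling and -0.06 with size factors, and -0.155 to 0.101 in the leave-one-outs; with DAXX siRNA it was -0.13 to 0.024 there.

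Of chromatin regions annotated with a symbol of the set, 1 was called with crotonate and non-targeting siRNA when 1A and 1B were kept apart. That setting counts 2 libraries of 1 replicate as 2 samples. With the replicate block, 2 were called in the same comparison (YARS, adjusted p = 0.00675, and SLC38A2, adjusted p = 0.0478). With DAXX siRNA, between 0 and 1 was called when 1 sample was left out. The replicate block gave 14 lower genes with DAXX siRNA and 17 with non-targeting siRNA in RNA. The numbers were not taken to pair libraries: 5 of 24 same-number RNA pairs correlated above 0.1 (from -0.251 to 0.188), and 7 of 16 libraries correlated best with their own number. None of 13 chromatin pairs did (from -0.001 to 0.095), although 9 of 10 samples correlated best with their own number, a hint from the data and not the design. The Kcr libraries held 2.23 to 3.64 M reads over regions, with 2 samples in each crotonate group, and what depth or sample number limits there was not tested.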
